A study of Mus musculus with 7 samples.

Results

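HDAC1 occupancy was examined at 9 genes that encode mesenchymal basic helix-loop-helix (bHLH) factors or zinc-finger factors of the epithelial-mesenchymal switch: Twist1, Twist2, Tcf15, Tcf21, Scx, Snai1, Snai2, Zeb1 and Zeb2. Every HDAC1 peak that overlapped the body of 1 of these genes, or the 20 kb on either side of it, was taken. This gave 32 of the 15347 peaks in the deposited list, and the genes are 9 of 21851 protein-coding genes in the annotation. HDAC1 takes acetyl groups off histone tails, and its places on the genome were mapped by ChIP-seq, in which DNA fragments pulled down with an antibody are sequenced. There were 4 ChIP samples for HDAC1 and 3 of input chromatin, all from wildtype Swiss Webster embryos at E11.5 with 40 to 44 somites, in which forelimb and hindlimb buds were pooled. No sample was treated or mutant, so there were no conditions to compare. The peaks of all samples were deposited as 1 list of coordinates (mm10). That list has no height, read number or value for a single sample, so no value below has a replicate error, and the depth behind a peak cannot be read from it. The study's text names further per-peak values, a fold change and a false discovery rate, and calls its list rank ordered. Those values were not used here. A peak's rank is its place in the deposited list, 1 being the first, and it stands for no measured strength here.

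bHLH factors bind DNA as dimers at short sites called E-boxes, usually with a broadly expressed E protein as the partner. Twist, Snail and ZEB factors are known for promoting the loss of epithelial character, and Snail and ZEB factors repress genes such as Cdh1, which encodes E-cadherin, through E-boxes and corepressor complexes that can contain HDAC1. In the limb bud, Twist1 is needed in the mesenchyme for outgrowth and Scx marks tendon progenitors, while Tcf15 is best known from somites and Tcf21 from the mesenchyme of internal organs. Peaks in bulk tissue do not show which cells carried HDAC1, and they do not measure expression.

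The sequences under the peaks are shown first, with 1 E-box, CAGGTG or CACCTG as its other strand reads, in capitals. It is a case of the general E-box CANNTG and is the form that Snail and ZEB factors bind. The first set is the same 60-base stretch of the bHLH coding sequence in 4 bHLH genes, found as the best ungapped match to Tcf15 in their coding exons, because HDAC1 peaks lay over it in 3 of them. All coordinates are mm10, all sequences are written 5′ to 3′ on the strand of the gene, and they were read from the GRCm38 reference. The stretches lie at chr12:33958413-33958472 (plus strand) in Twist1, chr1:91801924-91801983 (plus) in Twist2, chr2:152143938-152143997 (plus) in Tcf15 and chr10:22819505-22819564 (minus) in Tcf21.
Twist1: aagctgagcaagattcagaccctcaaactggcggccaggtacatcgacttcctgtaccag
Twist2: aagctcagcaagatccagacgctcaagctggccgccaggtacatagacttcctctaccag
Tcf15: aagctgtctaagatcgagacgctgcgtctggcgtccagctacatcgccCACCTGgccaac
Tcf21: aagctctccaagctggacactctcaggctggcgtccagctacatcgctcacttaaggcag
The Tcf21 stretch equalled that of Tcf15 at 43 of 60 bases (71.7%), Twist1 at 41 and Twist2 at 39. CACCTG stood in the Tcf15 stretch, and the other 3 genes compared did not have it there. Scx, also a bHLH gene of the set, was not compared, so its match to Tcf15 and its E-box content in this stretch are not known here. All 60 bases were inside an HDAC1 peak in Twist1, Twist2 and Tcf15, and none were in Tcf21.

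The second set is the sequence just upstream of the transcription start site (TSS) from RefSeq (GRCm38), shown because 8 of the 9 genes had a peak at the promoter and Tcf21 did not. RefSeq promoter entries matched 5 of the 9 genes, and Tcf15, Scx, Snai2 and Zeb1 were not matched. Each is 250 bases long except that of Tcf21, which was shortened to 219 bases to leave out transcribed sequence. They are at chr12:33957421-33957670 (plus) for Twist1, chr1:91801211-91801460 (plus) for Twist2, chr2:167537945-167538194 (plus) for Snai1, chr2:45117443-45117692 (minus) for the most upstream start of Zeb2 and chr10:22820175-22820393 (minus) for Tcf21.
Twist1: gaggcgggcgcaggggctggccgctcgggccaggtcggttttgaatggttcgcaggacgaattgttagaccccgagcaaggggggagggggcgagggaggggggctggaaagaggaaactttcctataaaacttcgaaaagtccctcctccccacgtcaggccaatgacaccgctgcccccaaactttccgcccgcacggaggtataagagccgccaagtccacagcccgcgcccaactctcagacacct
Twist2: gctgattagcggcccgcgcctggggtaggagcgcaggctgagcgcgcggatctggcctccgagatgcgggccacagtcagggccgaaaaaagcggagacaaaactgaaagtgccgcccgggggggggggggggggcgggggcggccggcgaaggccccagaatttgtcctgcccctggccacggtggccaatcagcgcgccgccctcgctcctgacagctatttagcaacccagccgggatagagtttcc
Snai1: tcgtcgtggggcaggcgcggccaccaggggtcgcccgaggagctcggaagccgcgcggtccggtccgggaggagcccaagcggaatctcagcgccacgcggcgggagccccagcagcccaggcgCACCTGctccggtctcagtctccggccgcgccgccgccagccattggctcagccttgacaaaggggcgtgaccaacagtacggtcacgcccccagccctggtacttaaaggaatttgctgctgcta
Zeb2: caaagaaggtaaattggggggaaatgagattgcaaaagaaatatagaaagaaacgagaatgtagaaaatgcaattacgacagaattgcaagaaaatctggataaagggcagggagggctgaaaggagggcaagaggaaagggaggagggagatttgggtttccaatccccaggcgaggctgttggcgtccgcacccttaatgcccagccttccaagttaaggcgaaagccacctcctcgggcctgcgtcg
Tcf21: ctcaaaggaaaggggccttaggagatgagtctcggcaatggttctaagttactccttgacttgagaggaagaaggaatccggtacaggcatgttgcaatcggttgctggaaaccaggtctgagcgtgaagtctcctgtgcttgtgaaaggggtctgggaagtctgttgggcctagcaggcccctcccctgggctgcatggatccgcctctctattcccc
Snai1 held 1 CACCTG here and the other 4 none, where 17.2% of 32851 RefSeq promoters have it in the 250 bases before the start. All 250 bases were under an HDAC1 peak at Twist1, Twist2 and Snai1, 57 were at Zeb2, and none were at Tcf21. GC content was 68.8% at Twist2 and 70% at Snai1, against 54.8% at Tcf21 and 49.6% at Zeb2.

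The third set is the middle of 5 peaks that the account below turns on, with at most 300 bases each. They are the only peak near Tcf21 (chr10:22813400-22813549, minus), the intronic peak of Snai1 (chr2:167540750-167541049, plus), a peak downstream of Twist1 (chr12:33962275-33962574, plus), the best-ranked peak outside a promoter near Scx (chr15:76461775-76462074, plus) and the peak just upstream of the Snai2 start (chr16:14705400-14705699, plus).
Tcf21 downstream: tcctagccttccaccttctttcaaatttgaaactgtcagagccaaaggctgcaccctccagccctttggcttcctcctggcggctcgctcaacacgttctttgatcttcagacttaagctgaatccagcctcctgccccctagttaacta
Snai1 intron: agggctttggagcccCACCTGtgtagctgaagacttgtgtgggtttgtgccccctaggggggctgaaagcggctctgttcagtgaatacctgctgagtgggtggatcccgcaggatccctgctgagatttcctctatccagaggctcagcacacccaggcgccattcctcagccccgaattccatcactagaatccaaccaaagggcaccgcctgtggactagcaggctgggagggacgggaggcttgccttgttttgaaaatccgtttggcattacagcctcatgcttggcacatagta
Twist1 downstream: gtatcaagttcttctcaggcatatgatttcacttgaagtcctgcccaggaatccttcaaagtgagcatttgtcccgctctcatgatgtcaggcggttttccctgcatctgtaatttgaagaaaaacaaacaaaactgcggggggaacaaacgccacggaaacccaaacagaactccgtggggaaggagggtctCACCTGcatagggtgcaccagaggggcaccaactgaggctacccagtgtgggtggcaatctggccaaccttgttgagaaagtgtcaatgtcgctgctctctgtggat
Scx downstream: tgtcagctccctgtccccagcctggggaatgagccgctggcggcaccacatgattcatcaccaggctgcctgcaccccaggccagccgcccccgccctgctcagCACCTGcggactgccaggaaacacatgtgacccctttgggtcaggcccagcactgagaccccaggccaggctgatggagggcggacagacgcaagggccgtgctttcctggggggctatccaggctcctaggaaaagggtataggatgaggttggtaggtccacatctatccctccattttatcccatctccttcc
Snai2 upstream: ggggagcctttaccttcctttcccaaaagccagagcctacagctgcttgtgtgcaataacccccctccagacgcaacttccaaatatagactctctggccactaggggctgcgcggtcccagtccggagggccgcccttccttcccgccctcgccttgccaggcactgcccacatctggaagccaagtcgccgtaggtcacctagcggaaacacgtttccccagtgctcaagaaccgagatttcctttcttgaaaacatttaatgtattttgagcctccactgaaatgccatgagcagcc
CAGGTG or CACCTG was present in the Snai1, Twist1 and Scx sequences and in neither of the others. Over the 300 bp around the centre of every peak, 9 of the 32 peaks at these genes (28.1%) and 22.3% of all 15347 peaks held it. Of these 9 peaks, 4 were at Snai1, which had 5 of the 32 peaks.

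All 9 genes had at least 1 HDAC1 peak in the window, where 59.2% of protein-coding genes did. A promoter peak, which is one that overlapped the stretch that starts 2 kb before a coding TSS of the gene and ends 1 kb after it, was present at 8 of the 9, where 44.1% of protein-coding genes had one. Of the 32 peaks, 11 were promoter peaks and 21 were distal, meaning elsewhere in the window. The promoter peaks were the longer and the higher in the list, with medians of 1300 bp in length and 3492 in rank, against 450 bp and 9483 for the distal peaks. Over the whole list, the 10757 peaks at coding promoters had a median of 550 bp and a median rank of 6369, and the 4590 others 300 bp and 10285.5. Among the first 3836 peaks of the list were 6 of the 11 promoter peaks (54.5%), against 31.3% of all peaks at coding promoters. Of the 19 distal peaks outside every coding promoter 3 were among them (15.8%), against 10.1% of all such peaks. The remaining 2 distal peaks, near Scx, lay at promoters of other genes. Without them the medians of the distal peaks were still 450 bp and 9483.

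No distal peak in the windows lay upstream of a gene. All 21 were downstream of the most upstream TSS, within the gene or past its end, whereas 32.2% of the 15349 pairs of a protein-coding gene and a distal peak had the peak upstream. The side was counted with the 20 kb flank only, and the promoter window reaches further upstream (2 kb) than downstream (1 kb). Outside the flank, upstream peaks lay 30.5 kb from Twist2, 33.9 kb from Snai1 and 37.7 kb from Tcf15. The distal peaks were not spread evenly either, since Scx held 9 of them, Twist1 5 and Snai1 4, mostly in runs of neighbouring peaks. Merging peaks no more than 1000 bp apart left 7 distal peaks. The 21 are thus not separate cases to set against the 32.2%, and the side was not counted after merging. Of the 32 peaks, 24 (75%) had another peak within 1 kb, against 36.3% of all peaks.

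**Figure D1:**
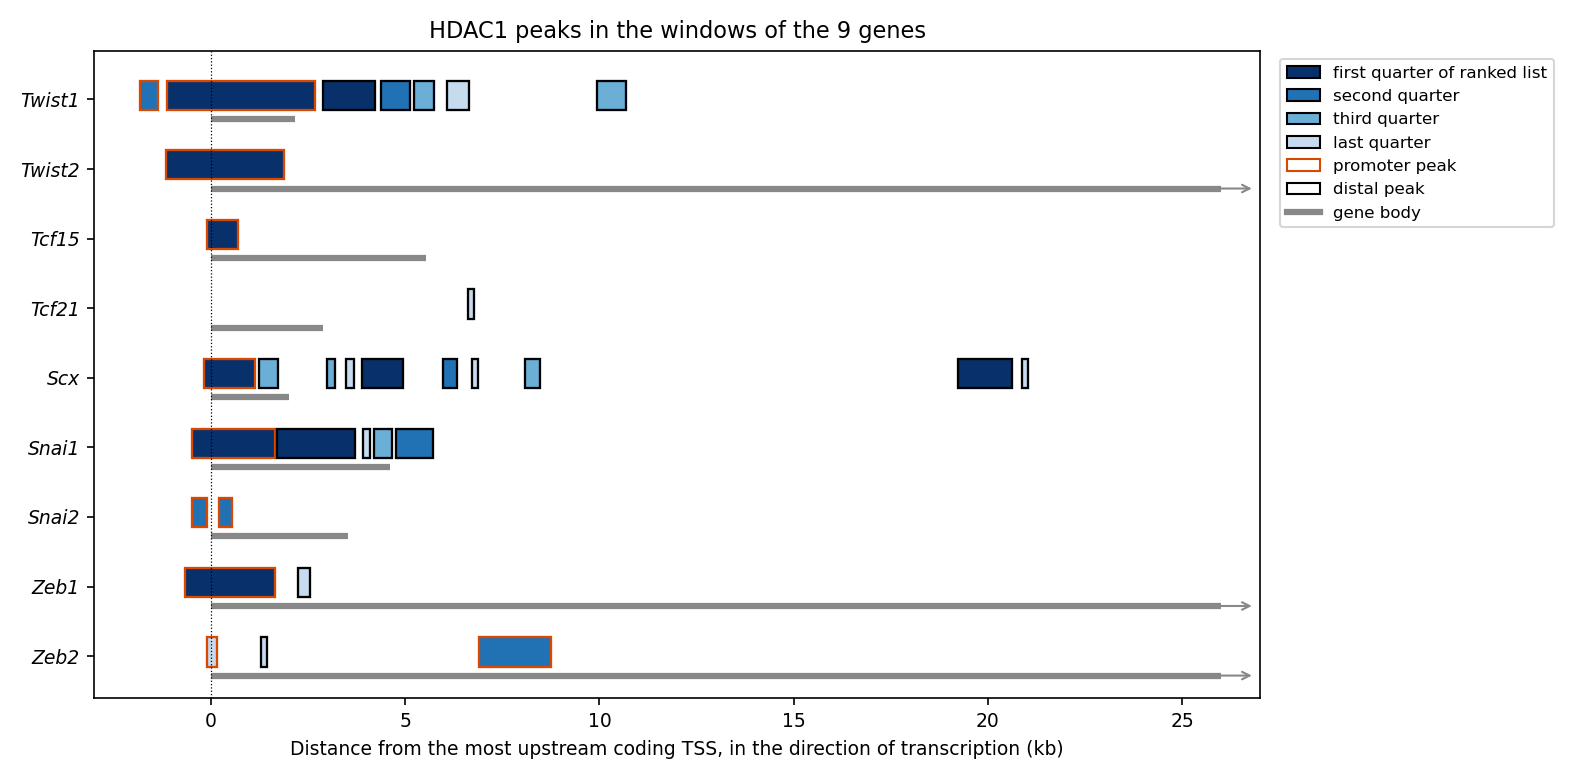
HDAC1 peaks (boxes) by distance in kb from the most upstream coding TSS of each gene, in the direction of transcription, with darker boxes higher in the ranked list, orange edges for promoter peaks, black edges for distal peaks and grey lines for gene bodies. Runs of neighbouring peaks are seen at Twist1, Scx and Snai1, 1 peak each at Twist2 and Tcf15, and no peak at the start of Tcf21.

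The Twist genes, which encode bHLH factors close to each other in sequence, both had long, high-ranked promoter peaks. At Twist1 (chr12:33957671-33959829, plus strand) a peak of 3800 bp at rank 454 ran from 1121 bp upstream of the TSS to 2678 bp downstream and covered the whole gene of 2159 bp. By length it was number 74 of the list. At Twist2 (chr1:91801461-91848028, plus strand) a peak of 3050 bp at rank 157 ran from 1161 bp upstream to 1888 bp downstream, over both coding TSSs and all 480 bp of coding sequence, where it also overlapped an exon of the antisense gene Gm29100. Among the 9630 genes with a promoter peak, 1.64% had one ranked as high as that of Twist2 and 4.71% as high as that of Twist1, and 1.52% and 0.841% had one as long.
Away from the promoter the genes differed. Twist1 had a second, smaller promoter peak of 450 bp (rank 5199), 1372 bp upstream of the TSS, and 5 distal peaks, all past its end. The distal peaks were 1350 bp (rank 3256), 750 bp (rank 7225), 500 bp (rank 9606), 550 bp (rank 11537) and 750 bp (rank 9440) long, the first of them 721 bp and the last 7771 bp past the gene end. The gaps between neighbours in this run were 100 to 350 bp, with 3300 bp before the last. Beyond it, the next peaks were 365 kb upstream and 261 kb downstream of the gene. Twist2, in contrast, had no distal peak in a window of 86568 bp, with the next peaks 30.5 kb upstream and 331 kb downstream, the latter at the promoter of Hdac4. HDAC1 peaks covered 19.3% of the window of Twist1, as much as in only 0.169% of protein-coding genes, and 3.52% of the longer window of Twist2.

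The other bHLH genes ranged from a dense cluster to no promoter peak. Tcf15, whose factor acts in the paraxial mesoderm, had a single peak of 800 bp at rank 3417 (chr2:152143450-152144249) that reached from 111 bp upstream of the TSS to 688 bp downstream. It covered 513 of 585 bp of coding sequence and was the most GC-rich of the 32 peaks, with 73.0% GC and a CpG content of 1.09 relative to that expected from its base composition. The next peak was 37.7 kb upstream, at the promoter of Srxn1.
Scx (chr15:76457452-76459458, plus strand), the tendon progenitor factor, had 10 peaks in its window, a number reached by 0.348% of protein-coding genes. Its promoter peak of 1300 bp at rank 3492 ran from 170 bp upstream to 1129 bp downstream of the TSS, and a second peak of 500 bp at rank 8795 lay 100 bp further on inside the gene. Past the gene end came 6 peaks of 150 to 1050 bp, with ranks from 1002 to 15018 and gaps of 200 to 1250 bp. The longest of these, 1050 bp at rank 1002 (chr15:76461400-76462449), began 1942 bp past the gene end and stood higher in the list than the Scx promoter peak.
Scx lies within an intron of Bop1, a ribosome biogenesis gene on the opposite strand, so that these distal peaks are in Bop1 as well. The other 2 peaks of the window, 1400 bp at rank 520 and 150 bp at rank 14341, lay 17.3 to 18.9 kb past the end of Scx at the promoters of Bop1 and Hsf1. Which gene the peaks in between act on cannot be told from their position.
Tcf21 (chr10:22817281-22820174, minus strand) was the exception among the 9 genes, with no peak over its promoter, its body or its 594 bp of coding sequence. Its only peak was 150 bp long at rank 11544 and lay 3732 bp past the gene end. The next peaks were at promoters of other genes, 528 kb upstream at Eya4 and 85.6 kb downstream at Tbpl1. Peaks too weak to enter the list would not be seen, so low occupancy at Tcf21 cannot be told from none.

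**Figure D2:**
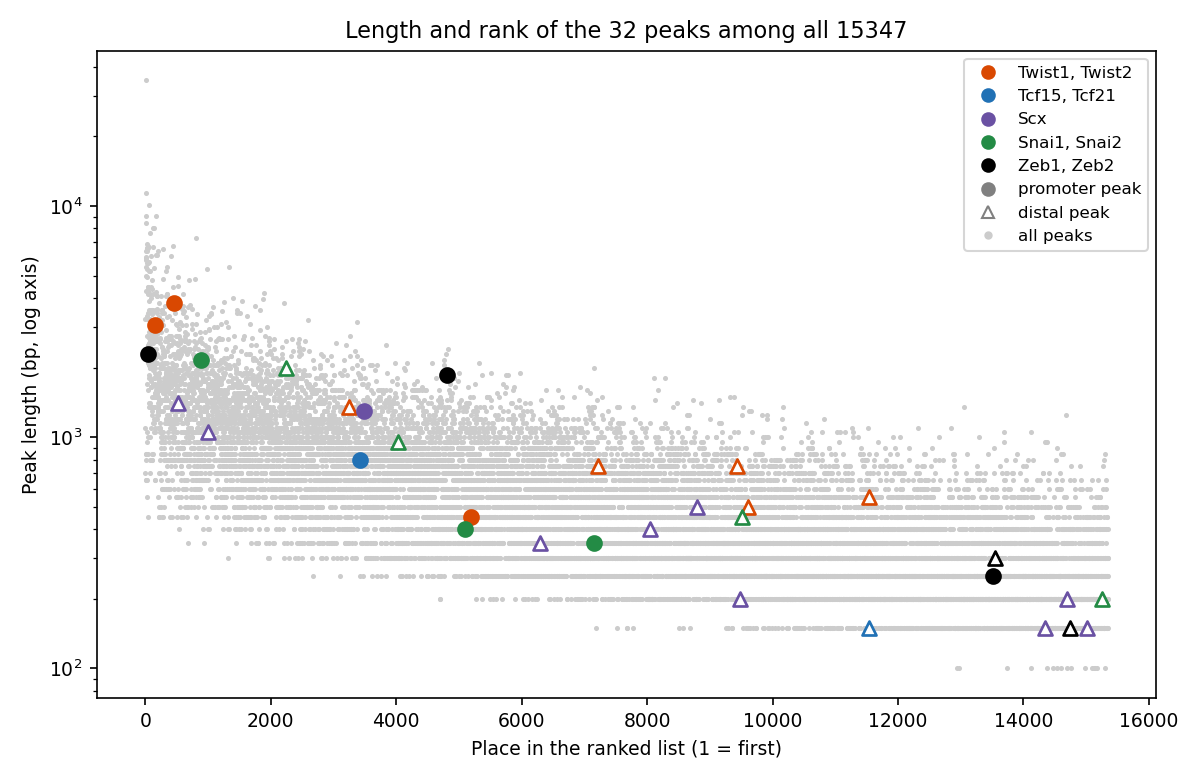
Length (bp, log axis) against place in the ranked list for all 15347 peaks (grey) and the 32 peaks of the 9 genes, with filled circles for promoter peaks, open triangles for distal peaks and colour for the gene family. The main promoter peaks of Zeb1, Twist2, Twist1 and Snai1 sit at ranks 48 to 884 with lengths of 2150 to 3800 bp. After rank 7673 come 14 of the 21 distal peaks. Of the 19 outside every coding promoter 68.4% come after it, close to the 70.4% of all such peaks.

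The Snail genes encode zinc-finger repressors, and HDAC1 was arranged differently at each. At Snai1 (chr2:167538195-167542814, plus strand) 5 peaks followed each other with gaps of only 50 to 200 bp, from 495 bp upstream of the TSS to 5704 bp downstream. The promoter peak was 2150 bp at rank 884 and the intronic peak after it 2000 bp at rank 2239. They were followed by peaks of 200 bp at rank 15257 and 450 bp at rank 9519 in the 3′ untranslated part and one of 950 bp at rank 4035 that began 136 bp past the gene end. Together they covered 92.4% of the gene body, which 0.325% of protein-coding genes reached. Another peak, 800 bp long at rank 1364, lay just outside the window, 20.7 kb downstream of the gene (chr2:167563550-167564349).
Snai2 (chr16:14705852-14709385, plus strand) had instead 2 short promoter peaks with the TSS between them. The upstream peak, 400 bp at rank 5098, ended 103 bp before the TSS, and the downstream peak, 350 bp at rank 7157, began 198 bp after it. Of all protein-coding genes, 1.12% had a coding TSS flanked by peaks within 1 kb on both sides and no coding TSS inside a peak. Beyond this pair, no peak was found for 344 kb upstream and 343 kb downstream. Thus 49.4% of genes with a promoter peak had one ranked as high as that of Snai2, against 9.15% for Snai1, and 79.7% against 3.66% had one as long.

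The Zeb genes encode large factors with several zinc fingers and a homeodomain, and both genes are over 100 kb long. Zeb1 (chr18:5591860-5775467, plus strand) had the best-ranked peak of all 9 genes, 2300 bp at rank 48, from 664 bp upstream to 1635 bp downstream of the TSS. Only 0.457% of genes with a promoter peak had one ranked as high. The peak also overlapped exons of Gm10125 and Gm2238, both on the opposite strand. Gm10125 starts at chr18:5593505, just past the peak end at chr18:5593499. Which of these genes the peak acts on cannot be told from its position. A second peak of 300 bp at rank 13548 lay 600 bp further into the first part of Zeb1. No peak was found in the rest of the 183608 bp of Zeb1 or within 257 kb outside it.
Zeb2 (chr2:44983632-45117395, minus strand) has 8 coding TSSs in the annotation, and its longest and highest-ranked peak was not at the most upstream one. There the promoter peak was 250 bp at rank 13517, from 104 bp upstream to 145 bp downstream. The larger peak, 1850 bp at rank 4805, lay 6896 bp into the gene over another coding TSS. A distal peak of 150 bp at rank 14745 lay between them. The antisense gene Zeb2os, on the plus strand, starts at chr2:45110707, just past the end of the larger peak at chr2:45110499. Which of these genes the larger peak acts on cannot be told from its position. The next peak downstream of the gene was 55.9 kb away, at Gtdc1, and the next upstream 1108355 bp away.

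Compared as families, the 8 Twist peaks had medians of 750 bp and rank 6212, and the 7 Snail peaks 450 bp and 5098. The 10 Scx peaks had 375 bp and 8422, and the 5 Zeb peaks 300 bp and 13517. With only 2 peaks, Tcf15 and Tcf21 gave no useful median. These medians hide the spread inside each family, because in the Twist, Snail and Zeb pairs 1 gene had a higher-ranked promoter peak than its paralog and another number of peaks in the window. For the Snail pair the difference in number rests on the split of the peaks, since each gene had 1 after merging over gaps of up to 1000 bp. By the best promoter peak the order was Zeb1, Twist2, Twist1, Snai1, Tcf15, Scx, Zeb2 and Snai2. Tcf15 and Scx, neighbours in that order, had ranks of 3417 and 3492. Without replicate values it could not be tested whether any neighbours in this order differ.

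By coverage of the coding sequence the genes fell into a set with 77.2% or more and a set with 5.37% or less. All coding bases of Twist1, Twist2 and Scx were inside HDAC1 peaks, which was so for 0.837% of protein-coding genes. In addition 87.7% were covered in Tcf15 and 77.2% in Snai1. In the other 4 genes it was 0.372% in Snai2, 1.73% in Zeb1, 5.37% in Zeb2 and none in Tcf21. The coding sequences of the bHLH and Snail genes are short, 480 to 807 bp. Of the 3607 protein-coding genes with a coding length in that range, 1.44% were covered completely, and of the 1349 among them with a promoter peak, 3.85%. A coding TSS was itself inside a peak at 7 of the 9 genes, all but Snai2 and Tcf21, where 32.8% of protein-coding genes had one inside. Among the 9630 genes with a promoter peak the share was 74.5%, so this count largely follows from the promoter peaks.

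**Figure D3:**
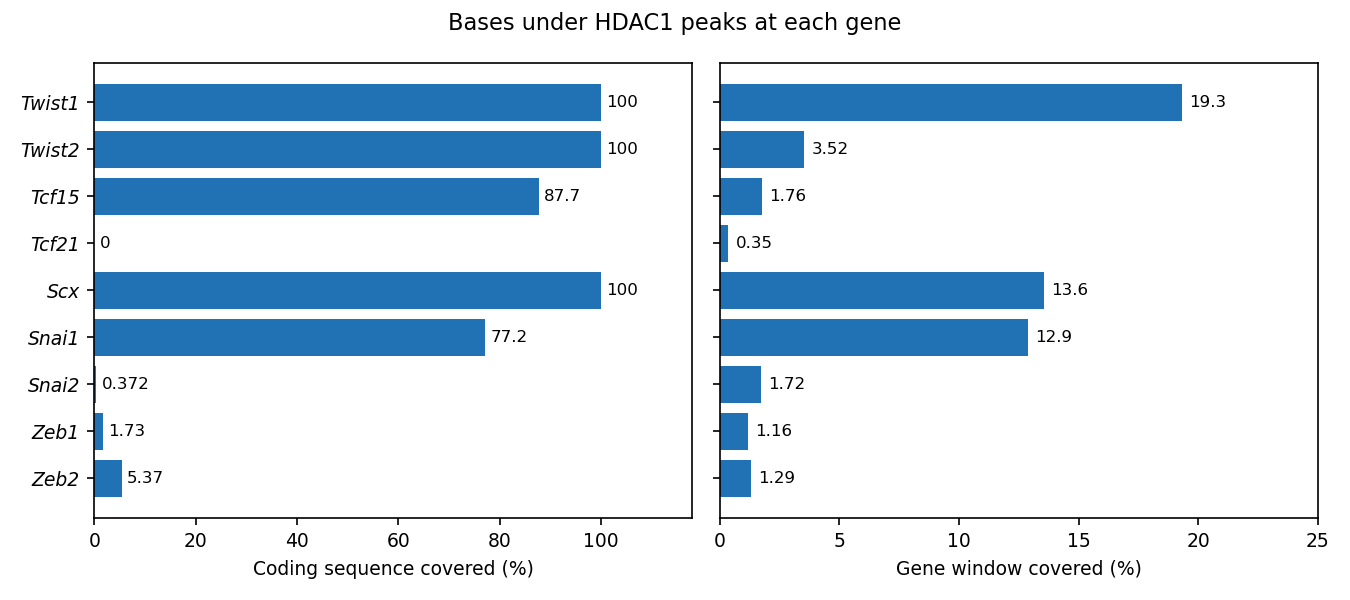
Bars give the percent of the coding sequence (left) and of the gene window (right, gene body and 20 kb on either side) that lies inside HDAC1 peaks. Coding sequence was covered to 100% in Twist1, Twist2 and Scx, and the window to 19.3% in Twist1, 13.6% in Scx and 12.9% in Snai1, with 3.52% or less in the other 6 genes.

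E-boxes were counted on both strands under the peaks. The 32 peaks held 32 CAGGTG sites in 14 peaks (43.8%), and 36.5% of all peaks held at least 1. These shares are not matched for length, and the 32 peaks were longer, with a mean of 912.5 bp against 652.4 bp. Per kb of peak there were 1.1 sites against 0.803 over all peaks. Snai1 alone had 14 of the 32 sites, 2.43 per kb, and 4 of its 5 peaks held at least 1. Without Snai1 the density was 0.768 per kb, below that of all peaks. Zeb1 had 4 sites, all in its promoter peak of 2300 bp, Scx 7 in 3 peaks, Twist1 4 in 4 of its distal peaks and Twist2 2. None was found under the peaks of Snai2, Zeb2 and Tcf21. The general E-box CANNTG occurred 3.53 times per kb in the promoter peaks, against 3.23 in all peaks at coding promoters. In the distal peaks it occurred 6.08 times per kb, against 5.32 in all peaks outside coding promoters. These sets differ, since the 21 distal peaks include the 2 near Scx at promoters of other genes. CATATG, the form bound by Twist dimers, occurred once, in the Twist1 peak at rank 7225 whose middle is printed above, and 3.38% of all peaks held it. The whole gene of Twist1 and its upstream flank, under the 3800 bp peak, had 5 CANNTG sites and no CAGGTG. A match of letters is not a measured binding site.

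**Figure D4:**
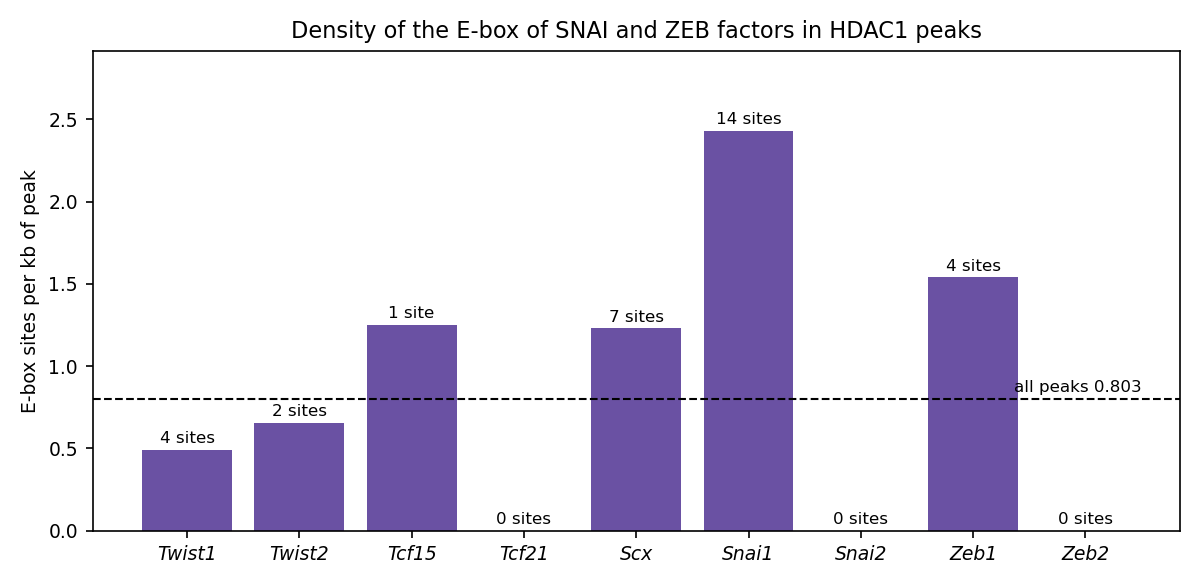
Bars give the number of CAGGTG sites, both strands counted, per kb of HDAC1 peak at each gene, with the number of sites above each bar and a dashed line at the density over all 15347 peaks (0.803 per kb). Snai1 had 2.43 sites per kb, and Snai2, Zeb2 and Tcf21 had none.

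Lists of related genes were checked for promoter peaks in the same way. E proteins and other bHLH relatives had one in 5 of 10 cases (50%), including the E proteins Tcf3 (rank 324), Tcf12 (rank 528) and Tcf4 (rank 753), which dimerize with Twist and Scx factors, and Hand2 (rank 16, 8450 bp), a bHLH gene of the posterior limb bud. Of 17 neural bHLH genes 8 had one (47.1%), close to the 44.1% of all protein-coding genes, the best ranked being Ascl2 (rank 473). Snail relatives and other mesenchymal factors had one in 5 of 6 cases (83.3%), with Scrt1, a Snail relative of neural tissue, at rank 1 of the whole list and Prrx1, a limb mesenchyme factor, at rank 120. The remaining gene of that list was Snai3, with 2 peaks in its window and none at its promoter. It was named after this was seen.
Mesenchymal effector genes had a promoter peak in 8 of 11 cases (72.7%), led by Pdgfra, a growth factor receptor, at rank 45 and Cdh2, which encodes N-cadherin, at rank 153. Epithelial genes and genes that oppose the mesenchymal state had one in 8 of 14 cases (57.1%), the best ranked being Tjp1, a tight junction gene, at rank 2103 and Ovol1 at rank 3101. The median best rank was 3851.5 for the mesenchymal effectors and 6764.5 for the epithelial list, against 2150.5 for the 8 genes with a promoter peak examined here and 5174.5 for all genes with one. Cdh1, the best known target of Snail and ZEB factors, had 1 peak in its window and none at its promoter, and it was named after this was seen. The limb bud genes Prrx1, Tbx5, Tbx4 and Pitx1 had promoter peaks at ranks 73 to 336, which is a description and no check of the tissue, as genes of other tissues also ranked high.

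**Figure D5:**
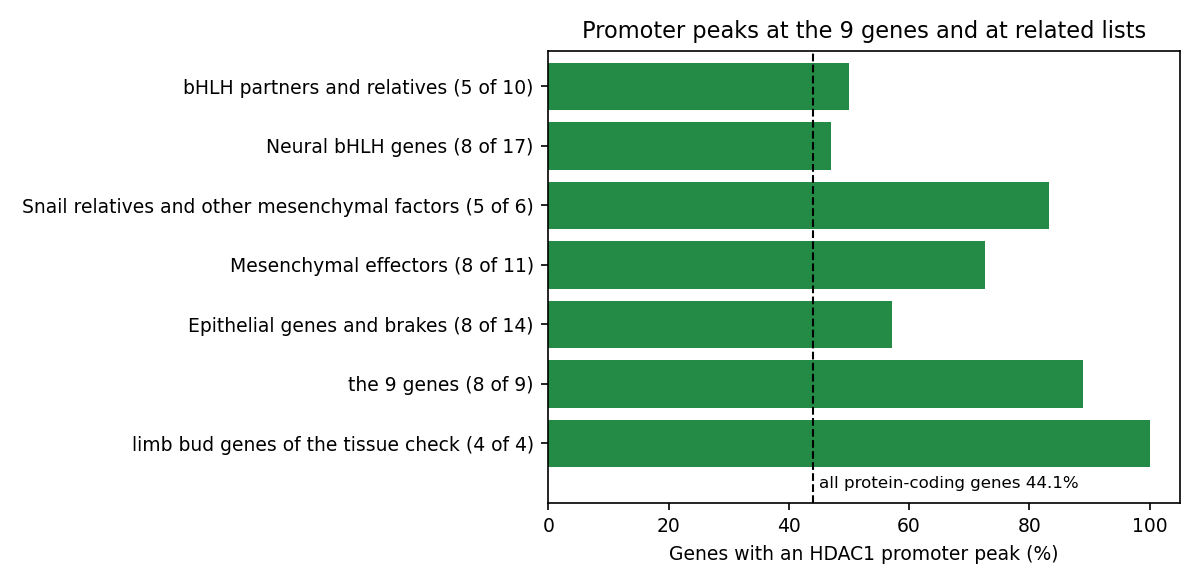
Bars give the percent of genes in each list with an HDAC1 promoter peak, with the number of genes in brackets and a dashed line at the share of all protein-coding genes (44.1%). The 9 genes had 88.9%, and the lists of related genes ranged from 47.1% for neural bHLH genes to 83.3% for Snail relatives and other mesenchymal factors.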

How the data were processed

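HDAC1 ChIP-seq was done on 4 samples, with 3 inputs, from pooled forelimb and hindlimb buds. Per the study's methods, the authors called peaks with CisGenome and kept those below a false discovery rate cutoff, and the submitters' processing notes name Bowtie2 2.2.5 and mm10. They deposited a single list of peak coordinates for all samples. The deposited coordinates are neither counts nor a signal, and all lengths were multiples of 50 bp. For the study's ChIP-seq in general, the methods describe a limma comparison of library-size adjusted reads between ChIP and input. The per-peak fold change and false discovery rate that the study's text names were not used here.

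Peaks were read as 1-based intervals. A peak counted as overlapping with at least 1 bp. Genes were taken from GENCODE M21 basic (GRCm38), sequences from RefSeq GRCm38. Overlap and coverage were checked on simulated data against a base-by-base count (2000 of 2000 matched). Python 3.11.15, pandas 2.3.3, numpy 2.4.6, pysam 0.24.0 and matplotlib 3.10.9 were used. The text names all 9 genes with all their peaks, the genes at whose promoter or body these peaks lie, and up to 4 genes of each related list by best promoter rank. Cdh1 and Snai3, which had no promoter peak, were named in addition. The genes and lists were chosen with earlier results of these data known. No test was run, because 1 pooled list gives no replicate values.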

Additional observations from a re-analysis of the deposited data

How the results depend on the processing

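The counts, medians, covered length and E-box density over the 9 genes were recomputed under the alternative settings that apply to each. This gave 42 values, 31 planned and 11 added after seeing the data, of which 29 stayed within 1.5 times the reported one. Peak counts of single genes are not among the 42, and many moved more. In the gene body alone Twist1 had 1 peak, Scx 2, Snai2 1 and Tcf21 0, while the rest stayed within 1.5 times. The gene windows set the number of peaks, which was 15 (6 distal) in the gene bodies alone and 53 (42 distal) with 100 kb on each side, in place of 32 and 21. With promoters of 5 kb on both sides 9 peaks were distal. Merging peaks no more than 1000 bp apart left 16 peaks, 7 of them distal, with a median of 1425 bp. Per gene this left 2 at Twist1 in place of 7, 5 at Scx in place of 10, 1 at Snai1 in place of 5 and 1 each at Snai2 and Zeb1 in place of 2. The first 7673 peaks of the list held 17 of the peaks, 7 of them distal, with a median of 1300 bp and a median rank of 3417. Later in the list lay 46.9% of the 32 peaks, against 50% of all peaks. Without Scx, an alternative chosen after seeing the data, 12 distal peaks were left. Promoter peaks were found at 8 of the 9 genes under all 5 alternatives tried for that count. With 20 kb of flank or the gene body alone, 9 and 8 genes had a peak. The CAGGTG density was 1.15 per kb in the central 300 bp, against 0.873 in the central 300 bp of all peaks. Over whole peaks it was 0.768 without Snai1, against 0.803 over all peaks. Leaving out Snai1 was also chosen after seeing the data.

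No paired analysis was possible because the peaks of all samples were given together, with no replicate named. Leaving out a replicate was not possible either. The depth per peak is unknown, and weak binding below the cutoff of the list, at Tcf21 for example, cannot be told from its absence.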

Other observations

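The core of the GLI binding site, GACCACCCA, was searched on both strands because the study is about GLI factors. It was in none of the 32 peaks, and 99 of all 15347 peaks (0.645%) held it. That it was not found in these windows says nothing about GLI binding there.

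Base composition under the peaks also differed in part from the rest of the list. The median GC content was 60.8% in the 11 promoter peaks and 65.4% in all peaks at coding promoters, while it was 55.9% in the 21 distal peaks and 52.5% in all peaks outside coding promoters. The 21 include the 2 near Scx at promoters of other genes. The ratio of observed to expected CpG was 0.693 in the promoter peaks against 0.817 in all peaks at coding promoters. Along the run of peaks at Snai1 this ratio fell from 0.649 in the promoter peak to 0.224 in the intronic peak, and it lay between 0.115 and 0.319 in the other 3. At Twist1 the 1350 bp peak just past the gene end had 36.2% GC, the lowest of the 32 peaks, against 55.4% in the peak over the gene.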
